A study of Mus musculus with 12 samples.

Results

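Fat cells grown from the mouse line 3T3-L1 were compared with undifferentiated cells of that line on 4 of the 12 arrays of the series, those whose mature adipocytes had received a control small interfering RNA. 3T3-L1 is a fibroblast-like preadipocyte line that, once differentiated, fills with lipid and takes on much of the physiology of a fat cell. The adipocytes (control-si) had been electroporated with Amaxa technology and were lysed 2 days after transfection. The other 8 arrays carried adipocytes in which Usp7 (the group USP7-si) or Kat5, the gene of TIP60 (the group TIP60-si), had been silenced, and they enter here only where stated. Every array also held the oppositely labelled common reference, a cRNA from undifferentiated 3T3-L1 cells. The labels do not give the sequence of the control RNA, whether the reference cells were transfected, how dense they were, or whether the 4 control samples came from separate cultures. The p-values therefore cover the spread among these 4 samples, which may be technical. The reference was 1 RNA without replicates, and its own spread is in no test. Adipocytes and reference shared the line, and every array paired 1 adipocyte sample with that reference. The measure throughout is the log2 ratio of adipocyte over reference, over 41174 gene probes and 18295 genes.

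The conversion of a preadipocyte into an adipocyte is driven by a cascade of transcription factors that ends in PPARG, a nuclear receptor bound by fatty acid derivatives, and CEBPA. Both switch on the genes for taking up, making, storing and releasing fat and for the hormones that fat cells secrete, while the collagen-rich matrix, the actin skeleton and the Wnt and TGF-beta signals of the fibroblast are known to recede. 3T3-L1 cells are usually grown to confluence, pass through a short burst of division after the hormonal cocktail, and then leave the cell cycle.

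Replicates 1 and 3 carried the adipocyte sample in Cy3 and replicates 2 and 4 in Cy5. Median raw signals ran from 112 to 170 per array and dye, over background medians of 42 to 46, and the ratios of any pair of arrays correlated at 0.892 to 0.957 across probes, which are not independent replicates. Between 86.2% and 97.9% of the probes in the adipocyte dye, and between 89% and 96.9% in the reference dye, stood more than 2 background SDs above the local background. A probe was called where limma gave an adjusted p below 0.05 and the mean ratio was at least 2-fold. By this rule 850 probes were higher in adipocytes (2.06% of those tested) and 510 were lower (1.24%), and on each of these probes all 4 arrays lay on the same side of 0. Without the fold threshold 9564 probes passed higher and 8690 lower, so the size of the difference, more than the p, separates genes here. The rises reached further than the falls: 153 called probes were at least 4-fold higher and 64 at least 4-fold lower, and 26 against 1 passed 16-fold. With each gene represented by its brightest probe, 557 genes were called higher (3.04%) and 366 lower (2%), and the median gene stood at -0.01. Of 515 called genes with several probes, 165 had another probe called the same way and 2 had one called the opposite way. In a bulk sample, fewer cells of a kind and less RNA per cell cannot be told apart.

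**Figure D1:**
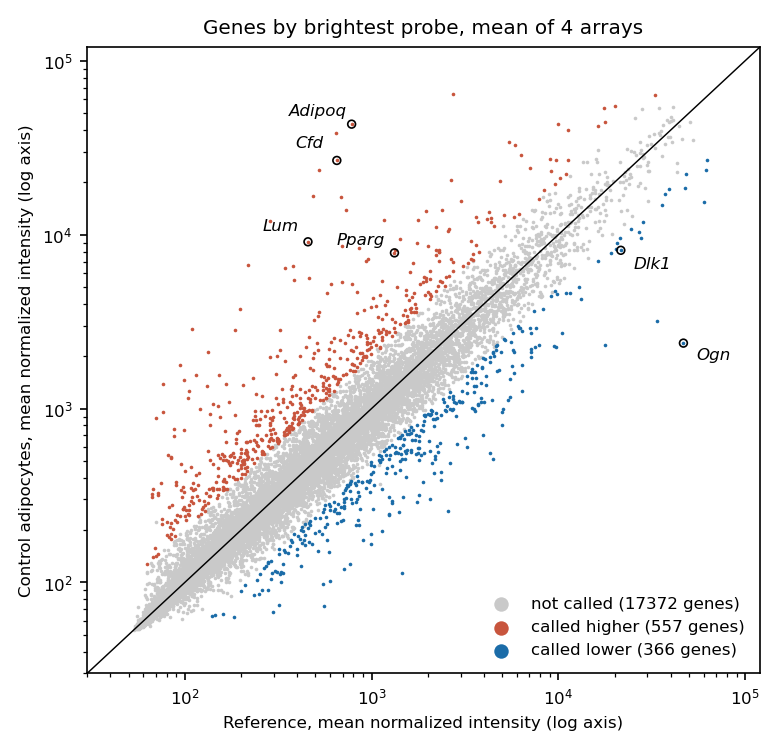
Mean normalized intensity of each gene's brightest probe in control adipocytes (vertical, log axis) against the undifferentiated reference (horizontal, log axis), over 4 arrays; each point is a gene and the line marks equal intensity. The 557 genes called higher lie above the 366 called lower, with Adipoq and Cfd far above the line and Ogn far below it.

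The labels of both RNAs were first set against markers. Adipoq, the gene of the hormone adiponectin, had log2 ratios of 5.47, 6.32, 5.55 and 5.87 on replicates 1 to 4. Their mean was 5.80 ± 0.39 (SD, n = 4), which is 55.8-fold (limma adjusted p = 5.97e-11), and even the lowest array was far above 0. Cfd, the secreted protease adipsin, gave 5.04, 5.76, 5.21 and 5.41, with a mean of 5.36 ± 0.31 (40.9-fold), and its other probe reached 6.17, the highest ratio on the array. Pparg itself gave 2.52, 2.73, 2.52 and 2.43, a tight set around 2.55 ± 0.13 (5.86-fold). Fabp4, the fatty acid carrier of the adipocyte cytoplasm, spread most: 3.83 and 4.38 with the sample in Cy3, against 5.95 and 5.26 in Cy5. Its probe was saturated in the adipocyte dye on all 4 arrays, so its mean of 4.85 (28.9-fold) is imprecise. The Cy3 arrays lay below that mean and the Cy5 arrays above it. Dlk1, the preadipocyte factor that holds differentiation back, went the other way, with -1.30, -1.48, -1.39 and -1.47 and a mean of -1.41 ± 0.08, a 2.65-fold lower level. Col1a1, a chain of fibrillar collagen, gave -1.87 and -1.96 in Cy3 but -0.70 and -1.07 in Cy5. It averaged -1.40 ± 0.61, its reference signal was saturated on 3 of 4 arrays, and its other probes reached 0.14. On the Cy5 arrays alone it was not called. All 6 markers were called in the direction of their label.

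The annotated start of Adipoq (chr16:23146286-23146585, plus strand, RefSeq GRCm38.p6) is shown because this gene had the largest mean ratio of the markers by brightest probe. The 300 bases run from 250 before the start to 50 after it, and capitals mark CCAAT or its reverse complement, which occurred at positions -34, -27 and -7 counted from the start.
Adipoq: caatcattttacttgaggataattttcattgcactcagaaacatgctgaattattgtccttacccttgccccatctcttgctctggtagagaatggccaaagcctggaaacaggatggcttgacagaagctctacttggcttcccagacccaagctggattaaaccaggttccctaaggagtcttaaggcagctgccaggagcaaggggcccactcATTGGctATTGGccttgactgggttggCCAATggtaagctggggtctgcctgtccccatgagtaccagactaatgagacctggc
CCAAT on either strand was found in 38.6% of the promoters of 14652 measured genes, in 50.1% of those of 441 genes called higher and in 38.0% of those of 274 genes called lower. The adipocyte lists, of 8 to 20 promoters each, are too small for their shares to be told apart. It was in 4 of 16 adipokine, 2 of 14 adipogenic factor and 5 of 17 lipid droplet promoters, under the share of measured genes. It was in 4 of 10 fatty acid uptake promoters (40.0%), close to that share. For fatty acid and triglyceride synthesis the count was 10 of 20, and for caveolae 5 of 8, above it. A match says that these letters are there, not that a factor binds.

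Acsl1, which activates long-chain fatty acids by joining them to coenzyme A, had the highest ratio of a gene by its brightest probe, with 5.63, 6.41, 5.53 and 6.01 on replicates 1 to 4 and a mean of 5.90 ± 0.40 (59.6-fold, adjusted p = 4.98e-11). Gpd1, which makes the glycerol phosphate backbone of triglyceride, averaged 5.47 ± 0.34. Cd36, the fatty acid transporter of the surface, averaged 5.37 ± 0.15, and Cidec, which fuses lipid droplets into large ones, 5.08 ± 0.25. Retn, the gene of the hormone resistin, followed at 4.91 ± 0.17. Mrap, the accessory protein that carries the ACTH receptor to the surface, stood at 4.68 ± 0.27. Pnpla2, the triglyceride lipase that starts lipolysis, reached 4.23 ± 0.18, Ces1f, a carboxylesterase, 4.20 ± 0.27 (its reference signal was above background on 3 of 4 arrays), and Glul, glutamine synthetase, 4.19 ± 0.21. The other probe of Glul stood at 0.84 and that of Gpd1 at 2.03. The 15 largest rises also held Prl2c5 (4.57 ± 0.26) and Prl2c1 (4.24 ± 0.09), prolactin-family genes whose near-identical copies an array probe may not tell apart, and Lum (4.30 ± 0.15), the matrix proteoglycan lumican.

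**Figure D2:**
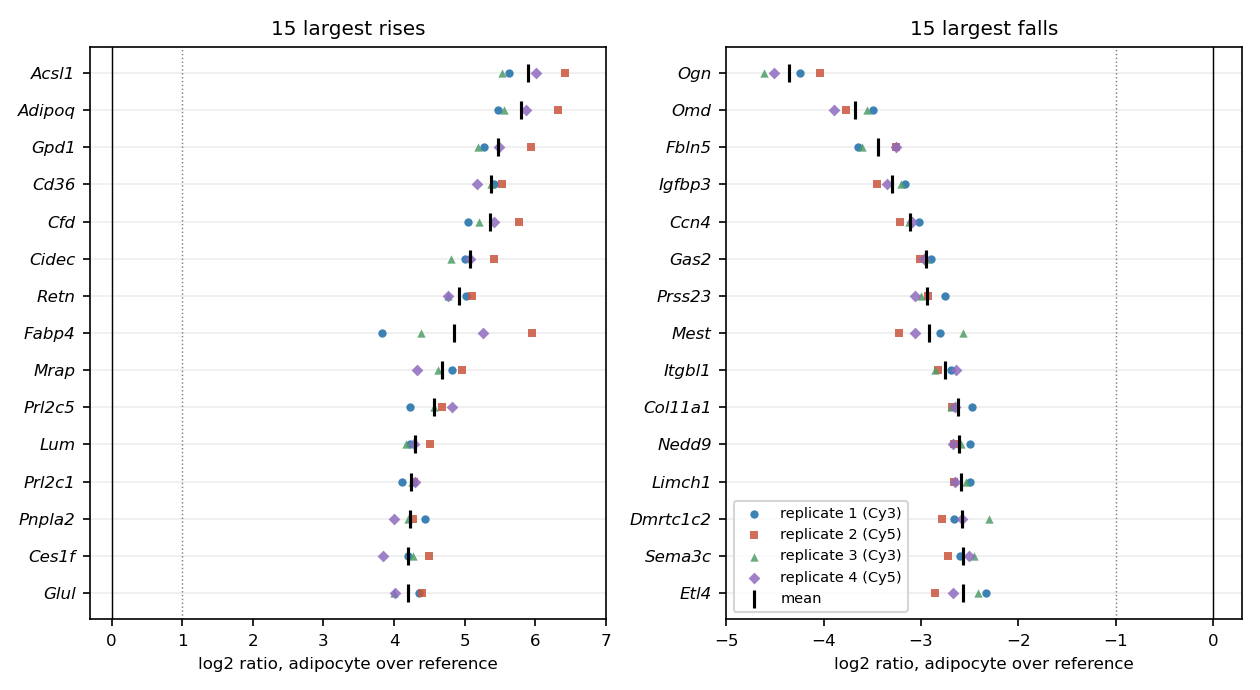
Log2 ratio of adipocyte over reference (horizontal) for the 15 largest rises (left) and the 15 largest falls (right) among called genes; each symbol is 1 array, with the dye of the adipocyte sample in the legend, and the bar is the mean. All arrays lie beyond the 2-fold line (dotted), and Fabp4 spreads most, from 3.83 to 5.95.

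Over all genes 3.04% were called higher and 2% lower, and the list counts that follow are to be read beside these shares. Of 17 measured adipogenic transcription factors, 5 were called higher and 0 lower, with a median of 0.59. Klf15, a Krüppel-like factor active late in adipogenesis, had the largest ratio of the list: 3.80, 3.99, 3.45 and 3.19, with a mean of 3.61 ± 0.36 (12.2-fold, adjusted p = 9.65e-09). Its other probe stood at 0.61, and its reference signal was above background on 3 of 4 arrays. Cebpa averaged 2.02 ± 0.09, Stat5a 1.35 ± 0.23 and Ppargc1b, a coactivator of mitochondrial genes, 1.34 ± 0.13. Srebf1, the regulator of lipid synthesis, stood at 0.75 ± 0.12, under 2-fold. Cebpb, which acts early, was at 0.26 and Ebf1 at -0.06. Among 24 nuclear receptors (median -0.01) Pparg alone was called, 4.17% against 3.04% of all genes called higher. Nr1h3, the liver X receptor alpha, came next at 0.70 ± 0.08, and Rxra, the partner with which PPARG binds DNA, averaged 0.59 ± 0.20.

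The store of fat and its release were both represented. In the list for lipid droplets and lipolysis 9 of 20 measured genes were called higher and 0 lower (median 0.87). Plin1, the coat protein that guards the droplet of fat cells, gave 2.95, 2.86, 2.60 and 2.53, a mean of 2.74 ± 0.20 (6.66-fold, adjusted p = 2.96e-09), while the coats Plin2 and Plin4 averaged 1.53 and 1.51 and Plin3 stood at -0.14. Lipe, hormone-sensitive lipase, averaged 2.71 ± 0.14 and G0s2, the inhibitor of Pnpla2, 2.29 ± 0.17, so the lipase and its brake were both called higher. The receptor Hcar2, which curbs lipolysis, was at 1.01.

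The start of Plin1 (chr7:79732727-79733026, minus strand, RefSeq GRCm38.p6) is shown with TTGCNNAA in capitals, a loose form of the letters that CEBP proteins are known to bind, at positions -187 and -58.
Plin1: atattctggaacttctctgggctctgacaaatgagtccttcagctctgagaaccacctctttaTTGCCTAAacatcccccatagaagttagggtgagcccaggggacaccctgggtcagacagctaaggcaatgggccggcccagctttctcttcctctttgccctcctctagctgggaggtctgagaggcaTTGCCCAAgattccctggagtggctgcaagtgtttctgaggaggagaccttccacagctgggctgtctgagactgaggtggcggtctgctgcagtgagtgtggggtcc
That motif, on either strand, was in 9.53% of the promoters of measured genes, in 12.7% of those called higher and in 10.2% of those called lower; in the lipid droplet list 1 of 17 promoters held it, and in the adipokine list 6 of 16.

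For fatty acid uptake 4 of 14 genes were called higher and 0 lower: Acsl1, Cd36, Fabp4 and Lpl. Lpl, the lipase that frees fatty acids from lipoproteins, averaged 1.61 ± 0.26. The median of that list was only 0.11, and its isoforms diverged, with Acsl3 at -0.73 ± 0.12 and Fabp5, the epidermal fatty acid carrier, at 0.71 ± 0.15. In fatty acid and triglyceride synthesis 9 of 28 genes were called higher and 0 lower (median 0.43). Scd1, the desaturase that makes oleate, gave 3.81, 3.86, 3.36 and 3.20 (3.56 ± 0.33, 11.8-fold), and Thrsp, a regulator of lipogenesis, averaged 3.29 ± 0.38. Of the enzymes that assemble triglyceride, Gpat3 was at 3.02 ± 0.25, Dgat2 at 2.76 ± 0.17, Dgat1 at 1.99, Agpat2 at 1.60 and Gpam at 1.24, all called, whereas Gpat4 (0.11), Lpin1 (0.65), Lpin2 (-0.07) and Mogat1 (-0.07) were not. Pck1, which feeds glyceroneogenesis, reached 2.73 ± 0.34. The enzymes that build the chain itself moved less: Fasn stood at 0.76, Acaca at 0.34, Acly at -0.12 and Elovl6 at 0.04, none of them called.

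Among adipokines and secreted proteins 10 of 20 were called higher and 1 lower (median 1.15). The called members beyond Adipoq, Retn and Cfd included several known from the acute-phase response. Saa3 gave 3.73, 4.41, 4.31 and 4.15 (4.15 ± 0.30, 17.8-fold), Lcn2, the iron-carrier binding lipocalin, 3.10 ± 0.26, and Orm1 2.98, Hp 2.60 and Orm2 1.32, while Saa1 (0.29) and Saa2 (0.11), looked up after their values were seen, were not called. Agt, angiotensinogen, averaged 3.58 ± 0.22 and Rarres2, the chemoattractant chemerin, 2.82. Leptin, the hormone by which fat signals its mass, was not among them: Lep stood at 0.29, and Rbp4 at -0.01. The gene called lower was Metrnl, at -1.25. In the complement list 4 of 12 genes were called higher and 0 lower, with a median of 0.04; C1s1, a protease of the classical pathway, lay at -0.998, just short of 2-fold, and was called lower without replicate 1 or without replicate 2. C3, the central component, averaged 2.94 ± 0.08 and Cfb, factor B, 1.30 ± 0.22, both of the alternative pathway in which Cfd acts.

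In the citrate cycle and pyruvate list 18 of 26 genes were called higher, 0 lower, with a median of 1.09 and array medians of 1.15, 1.14, 1.05 and 0.99 on replicates 1 to 4. Mdh1, malate dehydrogenase of the cytosol, averaged 2.17 ± 0.17, Pdhb, a subunit of pyruvate dehydrogenase, 1.92 ± 0.12 and Idh3a, of isocitrate dehydrogenase, 1.78 ± 0.08. The breakdown of branched-chain amino acids, a known source of acetyl and propionyl units in fat cells, had a median of 1.24, with all 18 members above 0, 13 called higher and 0 lower. Aldh6a1, the semialdehyde dehydrogenase of the valine path, gave 3.59, 3.50, 3.22 and 3.08 (3.35 ± 0.24, 10.2-fold, adjusted p = 1.86e-09), Dbt, a core subunit of the branched-chain dehydrogenase, 2.32 ± 0.18, and Bcat2, the first enzyme, 1.82 ± 0.23. In oxidative phosphorylation all 37 measured subunits lay above 0 and passed the adjusted p, but only 9 reached 2-fold (median 0.88), led by Uqcrfs1, the iron-sulfur protein of the cytochrome bc1 complex, at 1.65 ± 0.16. Tested against a 2-fold change in place of 0, 9 citrate cycle and 1 oxidative phosphorylation genes passed. Of the beta-oxidation list 8 of 17 were called higher (median 0.98), with Cpt2, the inner-membrane carnitine transferase, at 1.85 ± 0.11, and 4 passed the test against 2-fold. Cpt1a, the outer-membrane gate, stood at -0.83. Mitochondrial ribosomal proteins had a median of 0.49 with 2 of 27 called higher (7.41%, against 3.04% of all genes). Those of the cytosolic ribosome had a median of 0.07 with 0 of 17 called. Of 16 peroxisomal genes 3 were called higher and 0 lower (median 0.59), Cat, the catalase, leading at 2.03 ± 0.16.

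Of 24 genes of insulin signalling and glucose handling 3 were called higher and 4 lower (median 0.15). Slc2a4, the insulin-regulated glucose transporter GLUT4, gave 1.84, 1.95, 1.72 and 1.72 (1.81 ± 0.11, 3.50-fold), whereas Slc2a1, the transporter of basal uptake, stood at -0.95. Hk2 averaged 1.50 ± 0.16 and Pfkfb3 1.48 ± 0.22. On the lower side were Igf1 (-2.51 ± 0.15), its receptor Igf1r (-1.39 ± 0.25), Grb14, an inhibitor of the insulin receptor (-1.07), and Pdk4, the kinase that shuts pyruvate dehydrogenase (-2.45 ± 0.17). The insulin receptor, Insr, was at 0.29 and Irs1 at -0.18. Of the brown adipocyte genes 1 of 16 was called higher (6.25%, against 3.04% of all genes) and 0 lower (median 0.01). The called gene was Cox8b, a subunit of cytochrome oxidase, at 2.98 ± 0.35. Ucp1, the uncoupler that defines brown fat, stood at -0.03 and Prdm16 at 0.21. In the caveolar list Cav1 (2.65 ± 0.20) and Cav2 (1.89 ± 0.10) were called higher, 2 of 9, with a median of 0.61. In cholesterol synthesis 18 of 20 measured members lay below 0, with a median of -0.62, and 2 were called lower, Sqle (-1.09 ± 0.09) and Msmo1 (-1.03 ± 0.10). Without replicate 1 the count was 4, without replicate 3 it was 1 (Msmo1 then missed 2-fold), and tested against 2-fold it was 0.

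**Figure D3:**
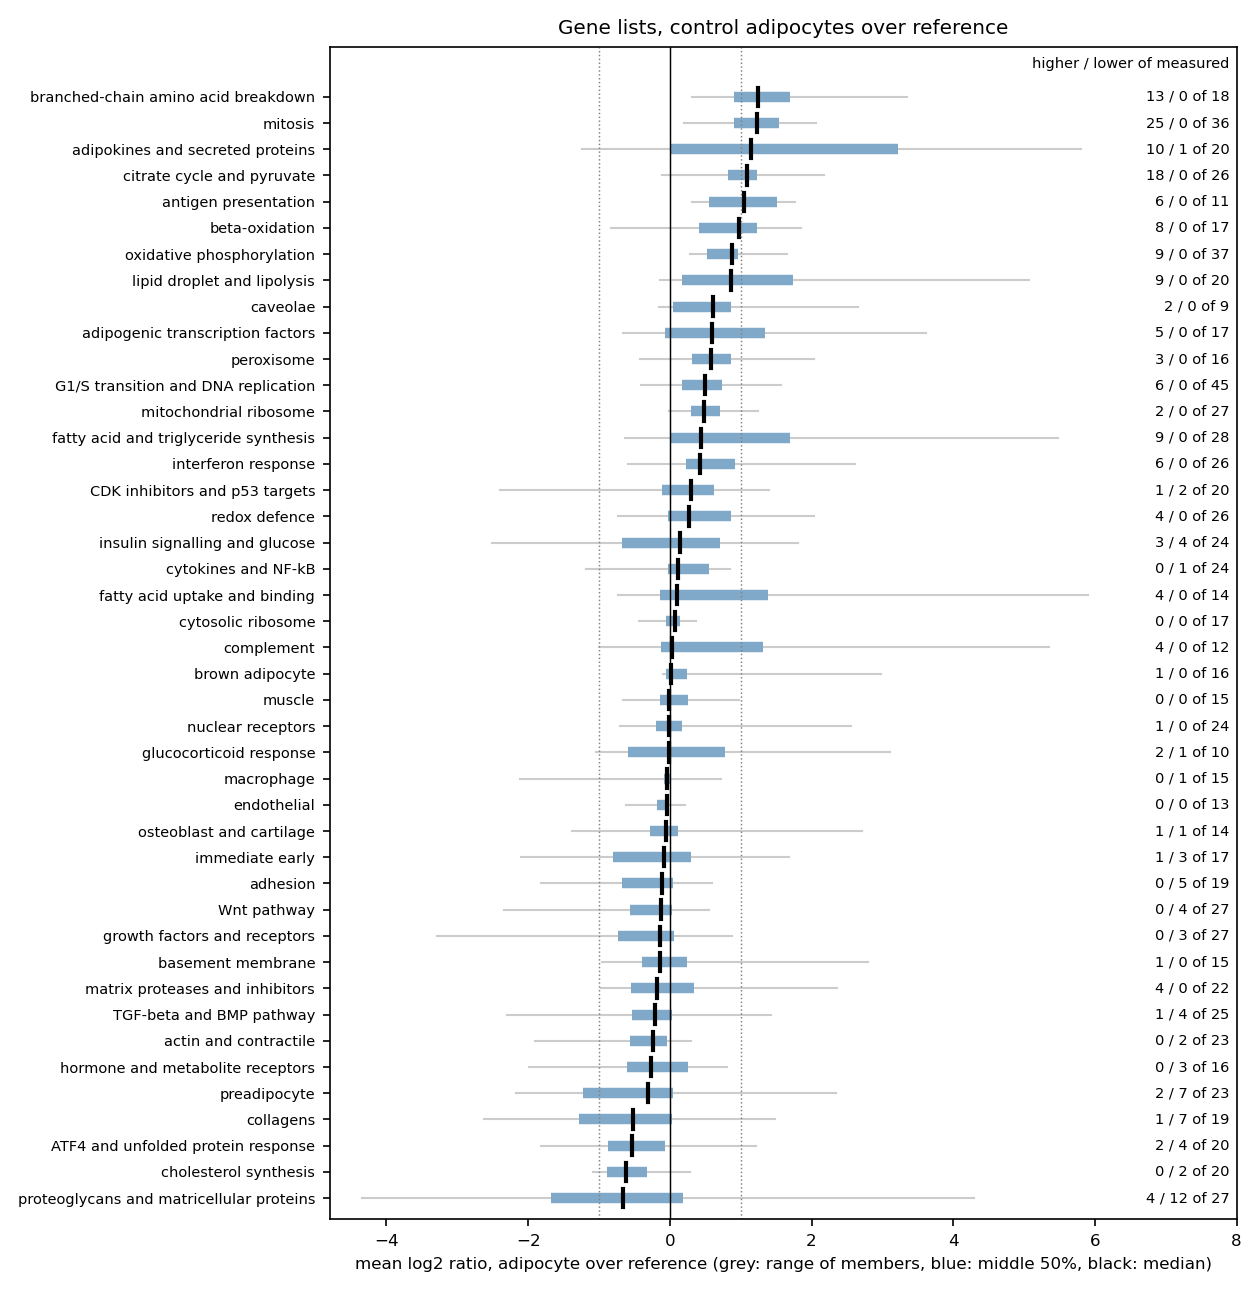
Mean log2 ratio of adipocyte over reference (horizontal) for the measured members of 43 gene lists, sorted by median; grey lines span the members, blue bars hold the middle 50% and black bars mark the median, with members called higher and lower at the right. Branched-chain amino acid breakdown, mitosis, adipokines and secreted proteins, the citrate cycle and antigen presentation have medians past the 2-fold line (dotted), at 1.24, 1.23, 1.15, 1.09 and 1.05, and the proteoglycan list extends far to both sides.

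Of 36 measured mitosis genes 25 were called higher and 0 lower; all 36 lay above 0 on the mean and passed the adjusted p. The median was 1.23. The array medians were 1.10 and 1.10 with the adipocyte sample in Cy3, and higher, 1.33 and 1.27, in Cy5. With the median over a gene's probes in place of the brightest, the list median was 0.92, under 2-fold. Birc5, the survivin of the chromosomal passenger complex, gave 1.99, 2.10, 2.07 and 2.07 (2.06 ± 0.05, 4.17-fold, adjusted p = 7.20e-10). Mki67, the proliferation antigen, averaged 1.88 ± 0.11, Pttg1, securin, 1.83 ± 0.14, and Cenpa, the centromeric histone, 1.76 ± 0.11. Bub1b of the spindle checkpoint was at 1.65 ± 0.12 and Cdc20, the activator of the anaphase-promoting complex, at 1.63 ± 0.12. Lowest in the list were Foxm1, a transcription factor of the same phase, at 0.20, and Bub1 at 0.23. Of the genes of the G1/S transition and of DNA replication 6 of 45 were called higher and 0 lower, with a median of 0.49; 8 lay below 0, E2f1 lowest at -0.41. Rrm2, the regulated subunit of ribonucleotide reductase, averaged 1.56 ± 0.09, Cdt1, which licenses origins, 1.48 ± 0.04, Uhrf1, which maintains DNA methylation, 1.38 ± 0.07 and Tk1, thymidine kinase, 1.38 ± 0.09. Ccnd2, a D-type cyclin, was called at 1.25 ± 0.10. Among cyclin-dependent kinase inhibitors and p53 targets (median 0.30), 1 of 20 was called higher, Cdkn2c (1.40 ± 0.09), and 2 lower, Plk2 (-2.40 ± 0.07) and Gadd45b (-1.33 ± 0.17). Cdkn1b, the p27 inhibitor, stood at -0.84 ± 0.08. The density and growth state of the reference cells are not given in the labels, and their part in these ratios was not tested.

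**Figure D4:**
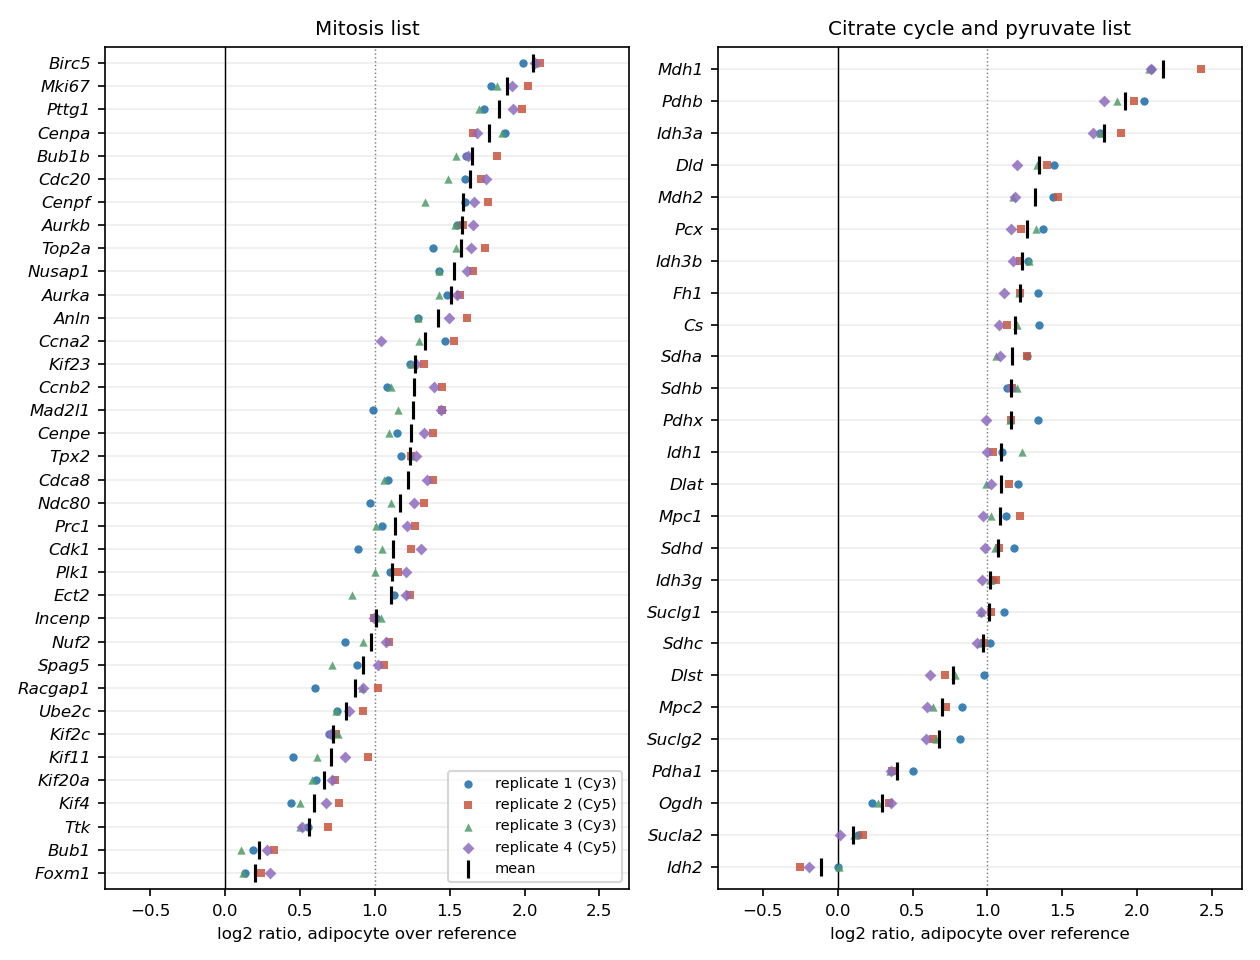
Log2 ratio of adipocyte over reference (horizontal) on each of 4 arrays for the 36 measured genes of the mitosis list (left) and the 26 of the citrate cycle and pyruvate list (right), sorted by mean; symbols are arrays, bars are means and dotted lines mark 2-fold. Every mitosis gene has all arrays above 0, and the citrate cycle genes cluster around a median of 1.09.

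The starts of 4 mitosis genes, all on GRCm38.p6 from RefSeq, are shown because their promoters share letters that the list was not chosen by. Capitals mark CCAAT and TTTGAA, the second being the core of the cell-cycle homology region known from promoters of mitotic genes, each on either strand. Ccnb2, cyclin B2 (chr9:70421505-70421804, minus strand), Cdc20 (chr4:118437294-118437593, minus strand), Cdk1, the mitotic kinase (chr10:69352863-69353162, minus strand), and Plk1, polo-like kinase 1 (chr7:122159185-122159484, plus strand), had log2 ratios of 1.26, 1.63, 1.12 and 1.12.
Ccnb2: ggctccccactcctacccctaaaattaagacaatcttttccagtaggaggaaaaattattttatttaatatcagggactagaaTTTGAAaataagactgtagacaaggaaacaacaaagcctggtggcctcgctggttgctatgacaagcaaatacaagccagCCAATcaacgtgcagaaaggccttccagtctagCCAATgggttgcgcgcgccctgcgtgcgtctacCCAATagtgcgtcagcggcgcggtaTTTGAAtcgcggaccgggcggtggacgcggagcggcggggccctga
Cdc20: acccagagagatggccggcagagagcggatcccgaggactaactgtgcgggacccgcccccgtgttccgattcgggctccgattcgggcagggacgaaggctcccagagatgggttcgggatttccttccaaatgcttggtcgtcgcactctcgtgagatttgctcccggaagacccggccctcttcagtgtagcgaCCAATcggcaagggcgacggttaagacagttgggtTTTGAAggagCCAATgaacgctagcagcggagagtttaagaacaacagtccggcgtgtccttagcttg
Cdk1: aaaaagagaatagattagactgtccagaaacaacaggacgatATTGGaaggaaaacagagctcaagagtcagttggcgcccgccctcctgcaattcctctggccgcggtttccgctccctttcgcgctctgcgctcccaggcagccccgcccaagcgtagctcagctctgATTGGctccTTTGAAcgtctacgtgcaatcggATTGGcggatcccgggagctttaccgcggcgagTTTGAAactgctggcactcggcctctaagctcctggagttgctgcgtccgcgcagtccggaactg
Plk1: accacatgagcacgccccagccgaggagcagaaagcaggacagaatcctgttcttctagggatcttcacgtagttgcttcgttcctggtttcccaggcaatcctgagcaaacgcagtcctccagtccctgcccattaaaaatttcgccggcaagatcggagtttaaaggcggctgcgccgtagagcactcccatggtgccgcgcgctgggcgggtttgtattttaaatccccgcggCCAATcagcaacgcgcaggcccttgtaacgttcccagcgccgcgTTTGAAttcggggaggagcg
TTTGAA began at position 5 of Ccnb2, at -18 of Cdc20, at -15 of Cdk1 and at 31 of Plk1, and further copies lay at -167 of Ccnb2 and -71 of Cdk1. Of the 30 mitosis promoters matched, 23 held TTTGAA (76.7%), against 14.7% of the promoters of measured genes, 17.0% of those called higher and 10.2% of those called lower. Within 50 bases of the start it was in 21 of the 30 (70.0%), against 3.63% of measured genes. CCAAT was in 22 of the 30 (73.3%), and both motifs together were in 20 (66.7%, against 6.09%). CCAAT alone was not particular to this list: it was in 15 of 16 cholesterol synthesis promoters, a list that ran lower. It was in 7 of 10 antigen presentation promoters, but in 0 of 12 adhesion promoters. In the replication list, TTTGAA was in 5 of its 38 promoters (13.2%) and CCAAT in 23 (60.5%). Of the other motifs searched, GGGCGG was in 80.0% of the mitosis promoters against 51.8% of those of measured genes. It was in 62.1% of those of genes called higher and 67.2% of those of genes called lower. TATAAA was in 1 of 30 mitosis promoters against 11.8% of those of measured genes. None of these motifs contains another.

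The 3 largest falls were in genes of the extracellular matrix. Of 27 proteoglycans and matricellular proteins 12 were called lower and 4 higher, with a median of -0.65. Ogn, the small leucine-rich proteoglycan osteoglycin, gave -4.24, -4.04, -4.61 and -4.51, a mean of -4.35 ± 0.26 or 20.4-fold lower (adjusted p = 6.33e-10), the lowest ratio on the array. Omd, osteomodulin of the same family, averaged -3.68 ± 0.19 (12.8-fold lower), and Fbln5, a fibulin needed for elastic fibres, -3.44 ± 0.21. Ccn4, a matricellular target of Wnt, was at -3.11 ± 0.08, Thbs1, thrombospondin, at -2.27, and tenascin C, Tnc, at -1.68. The members that rose were Lum, with 4.23, 4.51, 4.17 and 4.28, then Spp1, osteopontin (2.71 ± 0.30), the large proteoglycan Vcan (2.50) and Sparcl1 (2.47). Dcn, decorin, stood at 0.53 and Bgn, biglycan, at 0.08. The list thus ran from -4.35 to 4.30.

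The promoter of Ogn (chr13:49607765-49608064, plus strand, RefSeq GRCm38.p6) is shown for the largest fall, with TATAAA in capitals on both strands, where the matches overlap at -229 and -227.
Ogn: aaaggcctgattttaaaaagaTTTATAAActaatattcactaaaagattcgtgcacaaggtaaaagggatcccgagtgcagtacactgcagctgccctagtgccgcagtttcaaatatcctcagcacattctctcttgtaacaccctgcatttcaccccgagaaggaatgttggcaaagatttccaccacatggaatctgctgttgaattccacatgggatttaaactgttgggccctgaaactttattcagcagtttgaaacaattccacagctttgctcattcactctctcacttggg
TATAAA was in 13.4% of the promoters of genes called higher and in 10.9% of those called lower. The Ogn promoter also held 2 matches of TTTGAA, left in small letters. The match that reads tttgaa lies within 50 bases of the start, as in mitosis genes above, although Ogn fell.

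Among collagens 7 of 19 were called lower and 1 higher (median -0.53); without replicate 1 or without replicate 2, 2 were called higher. Col11a1 was lowest at -2.62 ± 0.10, followed by Col12a1 (-2.51 ± 0.17), which lies along fibrils, Col8a1 (-1.92 ± 0.10) and the fibrillar pair Col1a2 (-1.44 ± 0.24, its reference signal saturated on 3 arrays) and Col1a1. Col3a1, another fibrillar chain, stood at -0.30. The type VI collagens, which form beaded filaments around fat cells, ran upward: Col6a3 was called at 1.48 ± 0.33 (saturated in the adipocyte dye on 2 arrays), with Col6a2 at 0.99 and Col6a1 at 0.75. Probes of one gene often differed here. Those of Col11a1 ran from -2.62 to -0.17, those of Col6a3 from -0.01 to 1.48 and those of Col8a1 from -3.73 to 0.02. In the basement membrane list 1 of 15 was called higher and 0 lower (median -0.14), Col18a1 at 2.80 ± 0.11, and Sparc stood at -0.95 ± 0.25. Of 22 proteases and inhibitors 4 were called higher and 0 lower (median -0.18): Mmp3 (2.36 ± 0.10, 5.12-fold), Adamts15 (1.39 ± 0.15), Mmp19 (1.37 ± 0.23) and Mmp13 (1.10 ± 0.13). Mmp2, the gelatinase, stood at -0.97 ± 0.10.

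**Figure D5:**
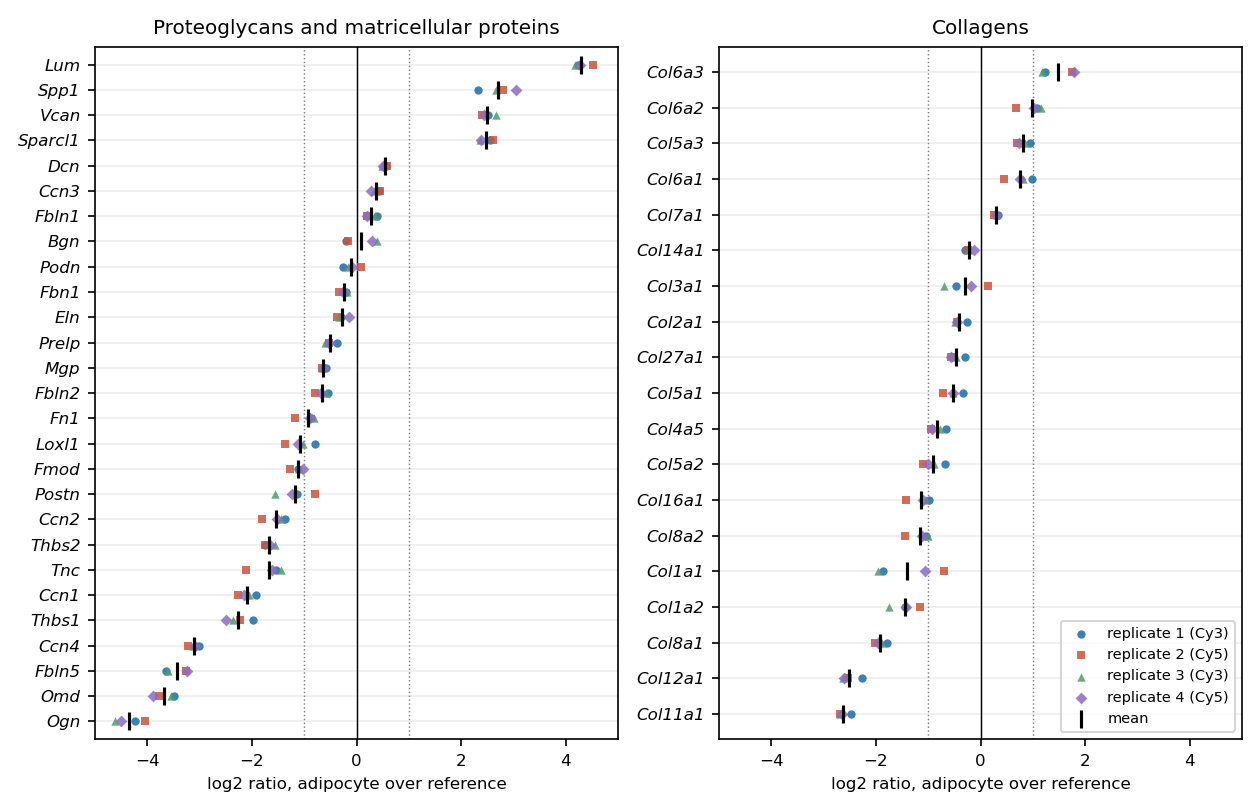
Log2 ratio of adipocyte over reference (horizontal) on each of 4 arrays for 27 proteoglycans and matricellular proteins (left) and 19 collagens (right), sorted by mean; symbols are arrays, bars are means and dotted lines mark 2-fold. The proteoglycans run from Ogn at -4.35 to Lum at 4.30, and the type VI collagens are the only ones with Col5a3 and Col7a1 to lie above 0.

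The remaining falls outside the matrix included secreted and cytoskeletal proteins. Igfbp3, which binds insulin-like growth factors, gave -3.17, -3.45, -3.21 and -3.35 (-3.29 ± 0.13, 9.80-fold lower), although another of its 3 probes stood at -0.16. Gas2, a protein of the growth-arrested cytoskeleton, averaged -2.95 ± 0.05, Prss23, a secreted protease, -2.94 ± 0.13, Mest, an imprinted gene linked to fat expansion, -2.92 ± 0.29, Itgbl1 -2.75 ± 0.11 and Nedd9, an adhesion scaffold, -2.60 ± 0.08. Limch1 was at -2.59 ± 0.08, Dmrtc1c2 at -2.58 ± 0.21 and Sema3c, a semaphorin, at -2.57 ± 0.12. Etl4 was also at -2.57, but others of its 8 probes reached up to 0.27. Of 23 preadipocyte genes 7 were called lower and 2 higher (median -0.30). Fst, the activin antagonist follistatin, averaged -2.17 ± 0.25, Anxa3 -1.98 ± 0.08, and the zinc-finger factors Gata2 and Gata3, which hold adipogenesis back, -1.39 and -1.35, with Gata2 above background in the adipocyte dye on 2 of 4 arrays. Against the name of the list, the surface antigens Ly6c1 (2.34 ± 0.13) and Ly6a (2.11 ± 0.16), known as SCA1, rose. Pdgfra and Pdgfrb, receptors of adipocyte progenitors, stood at -0.83 and -0.81.

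In the actin and contractile list 2 of 23 genes were called lower and 0 higher (median -0.24), Cnn2, a calponin (-1.90 ± 0.15), and Tpm1, a tropomyosin (-1.39 ± 0.06), and Srf, the factor that drives actin genes, stood at -0.61. Adhesion genes counted 5 of 19 lower and 0 higher (median -0.11), among them Cdh2, N-cadherin (-1.82 ± 0.23), Itgb5 (-1.49 ± 0.13) and Itgb1, the beta chain of fibronectin and collagen receptors (-1.10 ± 0.20). On the arrays with the adipocyte in Cy3 alone, and in the test against 2-fold, 3 of the 19 passed. In the Wnt pathway, known to restrain adipogenesis, 4 of 27 were called lower and 0 higher (median -0.12): the secreted modulator Sfrp2 (-2.34 ± 0.10) and the receptors Fzd2 (-1.86 ± 0.13), Fzd1 (-1.26 ± 0.13) and Fzd7 (-1.07 ± 0.16). The ligand Wnt5a was at -0.59. Of the TGF-beta and BMP genes 4 of 25 were called lower and 1 higher (median -0.21). The ligand Tgfb3 gave -2.16, -2.48, -2.14 and -2.44 (-2.30 ± 0.18, 4.94-fold lower), the latent binding protein Ltbp1 averaged -2.23 ± 0.17, and the activin subunits Inhba and Inhbb -1.56 ± 0.15 and -1.43 ± 0.13. Tgfbi, a matrix protein induced by TGF-beta, was called the other way at 1.42 ± 0.07. Growth factors added Vegfc (-2.33 ± 0.06) and Pdgfa (-1.47 ± 0.14) to Igfbp3 as the 3 of 27 called lower, with 0 higher and a median of -0.14. Of 16 hormone and metabolite receptors 3 were called lower and 0 higher (median -0.27): Npr3, the clearance receptor of natriuretic peptides (-1.99 ± 0.22), F2r, a thrombin receptor (-1.73 ± 0.08), and Lpar1, of lysophosphatidic acid (-1.06 ± 0.09). The fatty acid receptor Ffar2 stood at 0.76.

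In antigen presentation 6 of 11 were called higher and 0 lower, with all 11 above 0 and a median of 1.05. With the median over a gene's probes in place of the brightest, the list median was 0.83, under 2-fold. The class I gene H2-K1 gave 1.66, 1.91, 1.71 and 1.81 (1.77 ± 0.11, 3.42-fold, adjusted p = 1.86e-09), and the immunoproteasome subunits Psmb8 and Psmb9 averaged 1.46 ± 0.13 and 1.18 ± 0.13. Of 26 interferon-response genes 6 were called higher, 0 lower (median 0.42), and 4 passed the adjusted p lower without reaching 2-fold, among them Ifit2 at -0.60 and Bst2 at -0.53. Ccl5, a chemokine, was at 2.62 ± 0.33, Iigp1, an immunity-related GTPase, at 2.24 ± 0.24, Cxcl10 at 2.01 ± 0.31 and Gbp2 at 1.47 ± 0.12. The array medians of the interferon list were 0.22, 0.42, 0.55 and 0.53 on replicates 1 to 4, lowest on replicate 1. Ifit1 and Isg15, common indicators of type I interferon, were at 0.25 and 0.23. Gbp3, at 1.03, was not called without replicate 2 or without replicate 3, and Igtp, at 1.09, and Tap1, at 1.05, were not called without replicate 3. In the cytokine list the NF-kB subunit Nfkb1 was called lower (-1.19 ± 0.12), 1 of 24 (4.17%, against 2% of all genes). With 0 called higher the median of that list was 0.12, and Ccl2 and Il6 stood at 0.69 and 0.68.

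Among stress and early-response genes the directions split. Of 20 ATF4 and unfolded protein response genes, 4 were called lower and 2 higher, with a median of -0.53. Aldh1l2, a folate enzyme of mitochondria, had the tightest set, -1.81, -1.79, -1.84 and -1.83 (-1.82 ± 0.02, 3.52-fold lower), and Chac1, which degrades glutathione, was at -1.48 ± 0.07, whereas Dnajb9, a chaperone of the endoplasmic reticulum, rose to 1.21 ± 0.16 and Ddit4, an inhibitor of mTORC1, to 1.15 ± 0.22. Against a 2-fold change, 2 passed lower and 0 higher. Of the immediate early genes, Myc was called higher (1.69 ± 0.16) and Ccn1 (-2.10 ± 0.15), Egr1 (-1.91 ± 0.21) and Dusp1 (-1.04 ± 0.12) lower, 1 and 3 of 17 (median -0.09). Dusp1 was not called without replicate 3. Fos stood at -0.89 ± 0.08. In the redox list 4 of 26 were called higher and 0 lower (median 0.28), among them Cat and the microsomal glutathione transferases Mgst3 (2.02 ± 0.06) and Mgst1 (1.58 ± 0.17). Of 10 glucocorticoid-response genes 2 were called higher and 1, Dusp1, lower (median -0.01), or 2 lower without replicate 1. Hsd11b1, which regenerates active glucocorticoid in fat, gave 2.94, 3.11, 3.29 and 3.12 (3.11 ± 0.14, 8.66-fold), and Fkbp5, a glucocorticoid-induced immunophilin, averaged 1.54 ± 0.09, while Tsc22d3, induced by the same hormones, stood at -0.95 ± 0.13.

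Of 15 macrophage genes 0 were called higher and 1 lower (6.67%, against 2% of all genes, median -0.03). The called gene was Lyz2, lysozyme (-2.12 ± 0.08), with Adgre1, the F4/80 antigen, at -0.20 and Cd68 at 0.29. Csf1r was highest at 0.73, and 3 members passed the adjusted p higher and 3 lower. None of 13 endothelial and none of 15 muscle genes were called in either direction by limma, although 6 endothelial and 10 muscle genes passed the adjusted p alone; the medians were -0.04 and -0.01. Pax7, of muscle stem cells, was at 0.13 on replicate 1 and at 1.32, 1.23 and 1.20 on the other arrays. Without replicate 1, on the Cy5 arrays alone and with background subtraction, 1 muscle gene was called higher. In the list for osteoblasts and cartilage 1 of 14 was called higher, Spp1, and 1 lower, Runx2, the osteoblast factor (-1.39 ± 0.18), with a median of -0.05. Each is 7.14% of that list, against 3.04% of all genes called higher and 2% called lower.

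Both genes silenced on the other arrays were near 0 in the control adipocytes. Usp7 had a ratio of -0.11 ± 0.21 (adjusted p = 0.130) and Kat5, the gene of TIP60, -0.18 ± 0.13 (adjusted p = 0.0170). The other groups were hybridised against the same reference, and their values are given side by side only. Adipoq averaged 5.80 in control-si, 5.80 in USP7-si and 5.84 in TIP60-si, and Pparg 2.55, 2.58 and 2.46. Ogn stood at -4.35, -4.33 and -5.32. The median of the mitosis list was 1.23, 0.93 and 0.87, and that of the antigen presentation list 1.05, 0.86 and 0.76, in the same order.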

How the data were processed

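The RNA was amplified with T7 polymerase and labelled as cRNA with Cy3 or Cy5, per the labels' protocols. Slides were read on an Agilent G2565BA scanner, features were extracted with Imagene, and the authors normalized gene probes by print-tip loess and left the background uncorrected. The deposited scanner and normalized files give the linear intensity of each spot in either dye. The deposited value table gives log2 ratios of sample over reference, which match those of the normalized files to within 5e-06, so scale and direction are settled from the values. The control arrays' column medians ran from -0.00474 to 0.000352.

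Of 45220 spots 4046 control spots were left out. The platform annotation gave 34186 gene probes 1 symbol, 0 several and 6988 none; 3726 symbols were updated through RefSeq and 95 matched neither. Genes are represented by the probe with the highest mean intensity. Ratios were tested against 0 with lmFit and eBayes in limma 3.58.1 (R 4.3.3), with dye orientation as a covariate, two-sided, with Benjamini-Hochberg adjustment over 41174 probes, and the method was tested on simulated data. Saturation means a median pixel above 65000. Errors are SDs over 4 arrays, whose number limits the precision. The 43 lists (878 of 939 members measured) and the genes were chosen with earlier results of these data known. Named were the 6 markers, the 15 largest called rises and the 15 largest falls (without clone or predicted names), as many as 6 members of a list, by absolute ratio, Usp7 and Kat5; other genes were named after their values were seen. Lists were described by counts and medians, with no set test. Promoters are the first start listed for each gene by RefSeq, and 5 motifs were searched.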

Additional observations from a re-analysis of the deposited data

Results flagged for a closer look

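In 12 of 269 named genes and 1 of 43 lists, a single array lay apart from the other 3 by more than Dixon's 95% limit for 4 values. Chance alone flags about 5% of independent sets, but these genes share the same arrays, so that rate cannot judge the flags. Most flagged genes had replicate 1 as the separate array. Replicate 1 held log2 ratios of -1.01 for Igf1r, -0.90 for Lss, a cholesterol synthesis enzyme, 1.03 for Mmp19, 1.29 for Mmp13, -0.76 for Tsc22d3, -0.72 for Cdkn1b, 1.93 for Myc, 0.13 for Pax7 and -0.23 for Sox9, a cartilage factor. Replicate 2 was separate for Mdh1 (2.42), C3 (3.07) and the ribosomal protein gene Rps19 (-0.32). The median of the list for the G1/S transition and DNA replication was lowest on replicate 3, at 0.46. Only Pax7 differed by more than 1 on the log2 scale; the cause was not tested.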

How the results depend on the processing

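No paired analysis was possible because 1 group is compared with a reference that carries no replicate numbers to form a block; each ratio is already taken within an array. Tested against a 2-fold change with limma's treat, 556 probes passed higher and 331 lower, all of them among the 850 and 510. The counts stayed within 1.5 times under the other settings: 820 and 505 with normexp and loess on the scanner intensities, 834 and 530 with median centring in place of loess, 877 and 457 on the Cy3 arrays alone, 902 and 590 on the Cy5 arrays alone, and 826 to 886 and 493 to 541 with 1 array left out. Background subtraction, chosen after seeing the data, gave 1237 and 709. With it, 6 insulin and glucose, 5 peroxisomal, 11 G1/S and replication, 3 hormone receptor and 3 osteoblast and cartilage genes were called higher. On the Cy3 arrays alone 14 oxidative phosphorylation genes were, and on the Cy5 arrays alone 2 basement membrane and 2 protease genes were called lower. In the complement list 1 gene was called lower on the Cy5 arrays alone and in every setting computed from scanner intensities. No probe was called in the opposite direction in any setting. Among the 269 named genes, none that was called changed direction in any setting, and 28 called ones did not pass the test against 2-fold. Genes not called were not scored for a change of direction. With the median over a gene's probes in place of the brightest, 25 of 131 named genes fell under 2-fold, among them Igfbp3 and Col11a1. Another 30, not called, moved by more than their SD over arrays. List medians moved too. That of mitosis was then 0.92 and that of antigen presentation 0.83, both under 2-fold. Cholesterol synthesis came to -0.30, proteoglycans and matricellular proteins to -0.28 and hormone and metabolite receptors to -0.04. The adipokine median instead rose, to 1.42. On the Cy5 arrays alone Col1a1 was not called. The headers gave no slide or scan date, so that block was not run. Signal over background limits dim probes: 3060 were above background in neither dye on some array.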

Other observations

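Lists written after the values were seen describe further groups. Of 18 hypoxia-induced genes 8 were called higher and 1 lower, with a median of 0.82. Egln3, an oxygen-sensing prolyl hydroxylase, gave 2.79, 2.95, 2.92 and 2.98 (2.91 ± 0.08), Bnip3, a mitophagy receptor, averaged 2.75 ± 0.06, Fam162a 2.05 ± 0.17 and Pdk1, a kinase that inhibits pyruvate dehydrogenase, 1.68 ± 0.05, while Adm, adrenomedullin, was called lower at -1.82 ± 0.16 and Car9 stood at -0.24. The other probe of Fam162a stood at -0.02 and that of Pdk1 at 1.35. Of 17 glycolysis genes 6 were called higher and 0 lower (median 0.56). Ldha, lactate dehydrogenase, averaged 2.11 ± 0.23, Pgk1 1.85 ± 0.27 and Tpi1 1.46 ± 0.13, whereas Gapdh stood at -0.35 ± 0.12. The other probe stood at 1.80 for Ldha and 1.77 for Pgk1, but at 0.04 for Tpi1. Of 17 YAP and TEAD targets 7 were called lower and 0 higher, with a median of -0.69. Crim1 was at -1.60 ± 0.24, Ccn2 at -1.53 ± 0.20, Wwc1 at -1.53 ± 0.09, Lats2 at -1.50 ± 0.08 and Ajuba at -1.49 ± 0.25. The 4 probes of Lats2 reached up to 0.05, and the other probe of Crim1 stood at -0.65. Of 18 imprinted genes 4 were called lower and 0 higher (median -0.09), Mest, Plagl1 (-1.95 ± 0.10), Slc38a4 (-1.94 ± 0.16) and Dlk1, while H19 (-0.09) and Meg3 (0.12) stood near 0. However, the other probe of Plagl1 stood at -0.09 and that of Slc38a4 at -0.06, also near 0. Of 23 axon guidance genes 4 were called lower and 0 higher (median -0.36), Sema3c, Efnb2 (-2.35 ± 0.18), Slit2 (-2.12 ± 0.10) and Sema3a (-1.33 ± 0.05). The 7 probes of Slit2 reached up to -0.04. The other probe stood at -0.35 for Efnb2, at -0.85 for Sema3c and at -1.04 for Sema3a. In the list for lysosome and autophagy 0 of 19 genes were called by limma, although 15 passed the adjusted p alone (median -0.20), and Npc2 was highest at 0.88 and Hexa lowest at -0.91. Of 17 mitochondrial carriers 3 were called higher and 0 lower (median 0.46), led by the dicarboxylate carrier Slc25a10 at 2.44. Of 19 chaperones 2 were called higher and 1 lower (median 0.07), and of 13 genes of retinoid and steroid metabolism 3 higher and 1 lower (median -0.05).

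Genes that neighbour each other were looked up after their values were seen. On chromosome 13, where Ecm2, Aspn, Omd and Ogn follow one another, the ratios were 0.14, -2.10, -3.68 and -4.35, and the value of Ecm2 did not pass the test (limma adjusted p = 0.114). On chromosome 10 Dcn stood at 0.53, Lum at 4.30 and Kera at 0.88, with Epyc at 0.03. Of the serum amyloid genes on chromosome 7, Saa3 was at 4.15, Saa1 at 0.29 and Saa2 at 0.11. Another gene of that prolactin family, Prl2c3, was at 4.11 ± 0.23, beside Prl2c5 and Prl2c1; the probes of such near-identical copies may share transcripts.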
